A study of Elaeis guineensis with 15 samples.

Results

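The 3 contigs CL1Contig1062, CL1Contig1452 and CL1Contig8118 are assembled transcript pieces of oil palm (Elaeis guineensis) that carry enzymes of amino acid metabolism. They are 3 of the 51804 contigs counted in 12 Roche pyrosequencing libraries of fruit tissue. CL1Contig1062 and CL1Contig1452 are annotated as asparagine synthetases most similar to Arabidopsis ASN3, and CL1Contig8118 is EgLKR/SDH, a lysine-ketoglutarate reductase/saccharopine dehydrogenase. All were picked by name with their read counts in these libraries already known, so their levels and ratios are described here without a test.

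Asparagine synthetase transfers the amide nitrogen of glutamine to aspartate. Asparagine carries much nitrogen for little carbon, and plants use it to store nitrogen and to move it out of ageing or carbon-starved tissues. LKR/SDH is a bifunctional enzyme that joins lysine to 2-oxoglutarate to form saccharopine and then splits saccharopine into glutamate and aminoadipic semialdehyde, the first steps of lysine breakdown. In Arabidopsis, ASN1 is induced in the dark and by sugar starvation.

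Spikelets of a single tenera clone were exposed for 3, 6 or 9 h to 10 μl/l ethylene, a hormone that brings on fruit drop, and the control was tissue at 0 h. The abscission zone (AZ) at the fruit base was sampled at 150 days after pollination (DAP), when ethylene brings about cell separation (AZ150). Pedicel next to it from 150 DAP fruit (P150) and AZ of immature 30 DAP fruit (AZ30) were sampled at the same times, and neither separates under ethylene. AZ of field fruit at 30, 120 and 160 DAP was sequenced on another platform, and fruit were shedding at 160 DAP only. The study's methods name 30 DAP for the pedicel, while its results and the sample labels name 150 DAP, which is used here. Each tissue and time was 1 library, and none of the treated times had an untreated sample of its own, so ethylene and elapsed time cannot be told apart.

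The libraries held 26560 reads in contigs (AZ30 at 0 h) to 302391 (P150 at 6 h). Each level is a number of reads per 100000 of the library's reads in contigs, with exact 95% binomial intervals that cover counting error only. One read stood for 3.77 reads per 100000 in AZ30 at 0 h and for 0.331 in P150 at 6 h. A count of 0 allows up to 3 reads, which is 11.3 reads per 100000 in AZ30 at 0 h and 2.92 in AZ150 at 0 h. Contig lengths were not used, so levels were compared between libraries and not between contigs. In whole tissue, fewer cells of a type and less RNA per cell cannot be told apart.

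Both ASN3-like contigs were scarce before ethylene and after 3 h, abundant at 6 h and lower again at 9 h in the tissues of 150 DAP fruit, though for CL1Contig1452 in P150 the 6 and 9 h levels were not apart by library totals. In AZ150, CL1Contig1062 had 1, 3, 74 and 45 reads at 0, 3, 6 and 9 h, or 0.975, 5.32, 87.3 and 35.4 reads per 100000. P150 held 7, 9, 564 and 57 reads, or 3.17, 4.50, 187 and 137 reads per 100000. In AZ30 it had 0, 0, 3 and 4 reads, or at most 3.83 reads per 100000. At 6 and 9 h, the intervals of CL1Contig1062 did not overlap between any of the 3 tissues. Its level at 6 h was 89.6 times that at 0 h in AZ150 (95% interval 15.6 to 3584) and 58.9 times in P150 (28.4 to 147). At 9 h the ratio to 0 h was 36.3 in AZ150 (6.19 to 1466) and 43.3 in P150 (19.7 to 113). The width in AZ150 comes from the single read at 0 h.

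CL1Contig1452 followed the same course with fewer reads. It had 0, 0, 57 and 31 reads in AZ150, or 0, 0, 67.2 and 24.4 reads per 100000. P150 held 2, 7, 411 and 47 reads, or 0.904, 3.50, 136 and 113 reads per 100000. In AZ30 it had 2 reads at 6 h and none at the other times. With no read at 0 h, the AZ150 level was at least 23.0-fold higher at 6 h and at least 8.34-fold higher at 9 h. In P150 the ratio to 0 h was 150 at 6 h (95% interval 41.3 to 1245) and 125 at 9 h (32.7 to 1062). Of all reads of CL1Contig1452, 73.8% lay in the P150 library at 6 h, and 73.5% of those of CL1Contig1062.

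**Figure D1:**
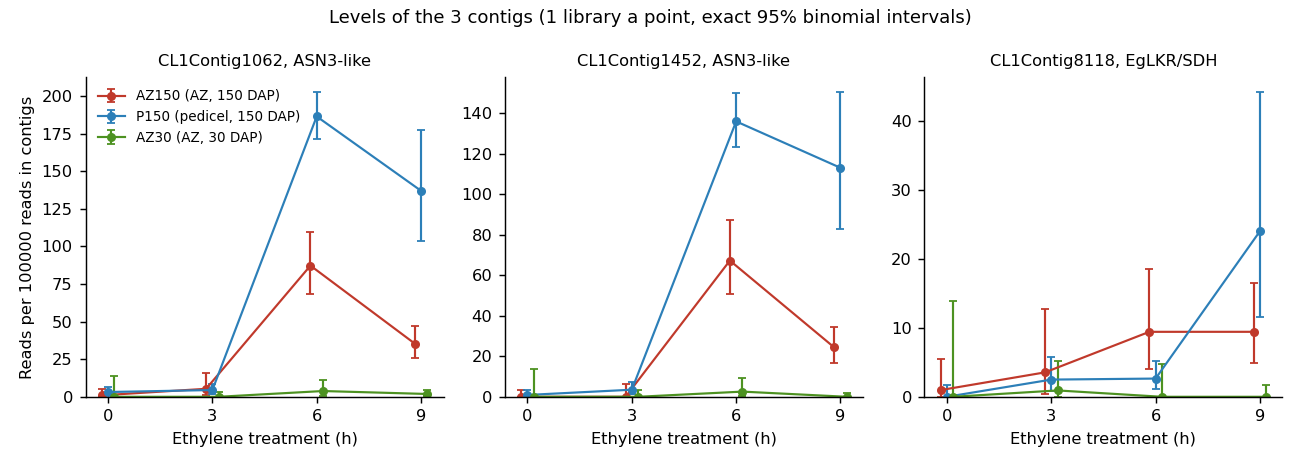
Reads per 100000 reads in contigs of the 3 contigs (vertical axis, from 0, its own range in each panel) against hours of ethylene (horizontal axis) in AZ150, P150 and AZ30. Each point is 1 library, bars are exact 95% binomial intervals, and points are shifted sideways for legibility. CL1Contig1062 reached 87.3 in AZ150 and 187 in P150 at 6 h, while AZ30 stayed at or below 3.83, and CL1Contig8118 reached 9.44 in AZ150 and 24.0 in P150 at 9 h.

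Levels at 9 h were below those at 6 h in both tissues, and which tissue dropped more depended on the scaling. CL1Contig1062 at 9 h stood at 0.405 of its 6 h level in AZ150 (95% interval 0.274 to 0.595) and at 0.735 in P150 (0.549 to 0.966). CL1Contig1452 at 9 h stood at 0.363 of its 6 h level in AZ150 (0.226 to 0.571) and at 0.831 in P150 (0.601 to 1.13). With library sizes from TMM (edgeR's trimmed mean of ratios), the ratios became 0.473 in AZ150 and 0.437 in P150 for CL1Contig1062, and 0.423 (0.264 to 0.666) in AZ150 and 0.494 (0.358 to 0.670) in P150 for CL1Contig1452, whose intervals overlap between the tissues. No P150 library was smaller than that of 9 h, which had 41588 reads.

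At every time with enough reads for a ratio whose interval left out 1, the ASN3-like contigs were lower in AZ150 than in P150. AZ150 over P150 was 0.468 for CL1Contig1062 at 6 h (95% interval 0.362 to 0.597) and 0.258 at 9 h (0.171 to 0.389). For CL1Contig1452 the ratios were 0.495 at 6 h (0.368 to 0.654) and 0.216 at 9 h (0.132 to 0.347). At 0 and 3 h the counts of CL1Contig1062 gave ratios of 0.308 (0.00683 to 2.40) and 1.18 (0.206 to 4.74), which include 1, and with TMM sizes the 3 h log2 ratio turned to -0.21. Against AZ30, the AZ150 level of CL1Contig1062 was 22.8 times as high at 6 h (7.5 to 113) and 19.0 times at 9 h (6.92 to 72.6). For CL1Contig1452 it was 26.3 times as high at 6 h (6.96 to 223) and at least 17.4-fold higher at 9 h.

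In AZ30 the ASN3-like contigs were close to the limit of detection throughout. The 4 reads of CL1Contig1062 at 9 h are 1.87 reads per 100000, under the 11.3 that a count of 0 allows in the 0 h library of that tissue. A small change with ethylene was therefore not detectable at this depth in AZ30, while a level such as the 87.3 of AZ150 at 6 h would have stood above that limit. The depth also showed the gap to the older tissues, since the AZ30 library at 9 h, with 214449 reads, is deeper than either 9 h library of the 150 DAP fruit.

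EgLKR/SDH (CL1Contig8118) was a low contig with 47 reads in all, and its reads were almost confined to the 150 DAP tissues. It had 1, 2, 8 and 12 reads in AZ150, or 0.975, 3.55, 9.44 and 9.44 reads per 100000 at 0, 3, 6 and 9 h. In P150 it had 0, 5, 8 and 10 reads, or 0, 2.50, 2.65 and 24.0 reads per 100000. In AZ30 it had a single read, at 3 h. The level stood higher at 6 h and 9 h than at 0 h in AZ150 and higher at 9 h than at 6 h in P150, and its P150 level was at least 1.84-fold higher at 3 h and at least 1.95-fold higher at 6 h than at 0 h. Its AZ150 level was 9.68 times that of 0 h both at 6 h (95% interval 1.30 to 430) and at 9 h (1.43 to 414). In P150 it was at least 17.7-fold higher at 9 h than at 0 h, and 9.09 times the 6 h level (3.23 to 26.5).

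Between AZ150 and P150, EgLKR/SDH had no tissue order that held under both scalings. AZ150 over P150 was 3.57 at 6 h (95% interval 1.17 to 10.9) and 0.392 at 9 h (0.155 to 1.01), the second of which includes 1, and with TMM sizes the 6 h ratio was 2.51 with an interval that includes 1 (0.821 to 7.67). Against AZ30, with no read at 6 or 9 h, AZ150 was at least 2.46-fold higher at 6 h and at least 6.75-fold higher at 9 h. These ratios rest on 8 to 12 reads in each 150 DAP library.

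**Figure D2:**
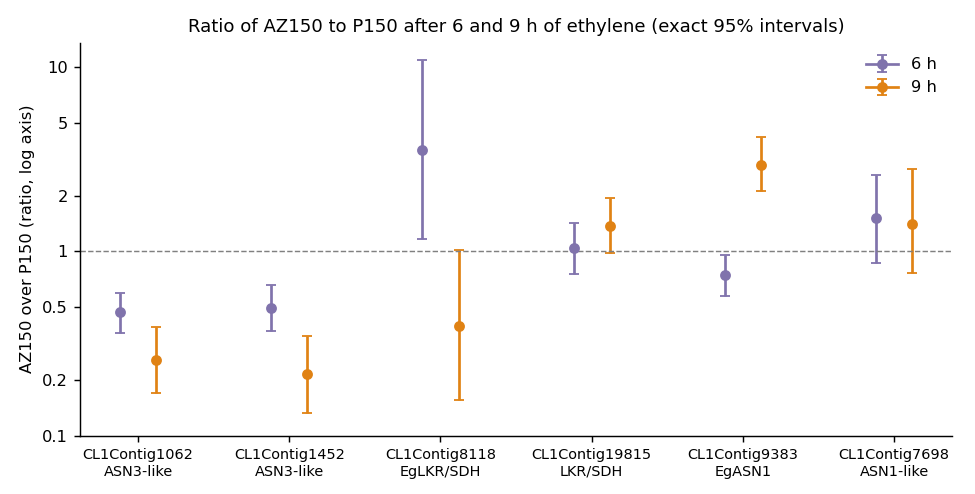
Ratio of AZ150 to P150 (vertical log axis, dashed line at 1) after 6 and 9 h of ethylene for 6 contigs of asparagine synthesis and lysine breakdown (horizontal axis), with exact 95% conditional intervals. Both ASN3-like contigs lie below 1 at either time, EgASN1 (CL1Contig9383) lies at 0.749 at 6 h and at 2.94 at 9 h, and CL1Contig8118 lies at 3.57 at 6 h and at 0.392 at 9 h.

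Set in order of level over the 12 libraries, CL1Contig1062 ran P150 at 6 h, P150 at 9 h, AZ150 at 6 h and AZ150 at 9 h. With library totals, each was apart from the next by its interval. AZ150 at 9 h was 6.65 times the next library, AZ150 at 3 h (95% interval 2.14 to 33.5), and from there down no neighbours differed beyond counting error. CL1Contig1452 had the same first 4 places, where P150 at 6 and 9 h were not apart with library totals (ratio 1.2, 0.888 to 1.66). For both contigs these places were the same with TMM sizes. P150 at 9 h and AZ150 at 6 h then had 112 and 84.5 reads per 100000 for CL1Contig1062, and 92.6 and 65.1 for CL1Contig1452. Whether these libraries stayed apart with TMM sizes was not worked out. For CL1Contig8118 the order began with P150 at 9 h, AZ150 at 9 h and AZ150 at 6 h, and no pair of neighbours differed beyond counting error. In the P150 library at 6 h, CL1Contig1062 was the 25th and CL1Contig1452 the 37th contig by reads, and CL1Contig8118 the 6632nd.

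The annotation does not separate the ASN3-like contigs into different genes. Along with CL1Contig3750 and CL1Contig10285, they carry the same RefSeq transcript, of the protein-coding locus LOC105045849, although the best Arabidopsis match of those other contigs is ASN1. Such contigs can be pieces or alleles of 1 transcript or close copies, and reads of closely alike sequence may have been split among them. Of the 1559 reads on the 4 contigs, CL1Contig1062 held 49.2%, CL1Contig1452 35.7%, CL1Contig3750 8.27% and CL1Contig10285 6.80%. The share of CL1Contig1452 was 39.0% in AZ150 at 6 h (95% exact interval 31.1 to 47.5), 36.9% in AZ150 at 9 h (26.6 to 48.1), 35.4% in P150 at 6 h (32.7 to 38.3) and 37.6% in P150 at 9 h (29.1 to 46.7). These intervals of CL1Contig1452 overlap in the 4 libraries that hold most of the reads, which does not show that all 4 contigs moved in parallel. AZ150 over P150 at 9 h was 0.149 for CL1Contig3750 (0.0405 to 0.464) and 0.0981 for CL1Contig10285 (0.0174 to 0.381). The ratio was 0.258 for CL1Contig1062 (0.171 to 0.389). Pieces, alleles and close copies cannot be told apart here, so CL1Contig1062 and CL1Contig1452 are not counted as independent support for each other.

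**Figure D3:**
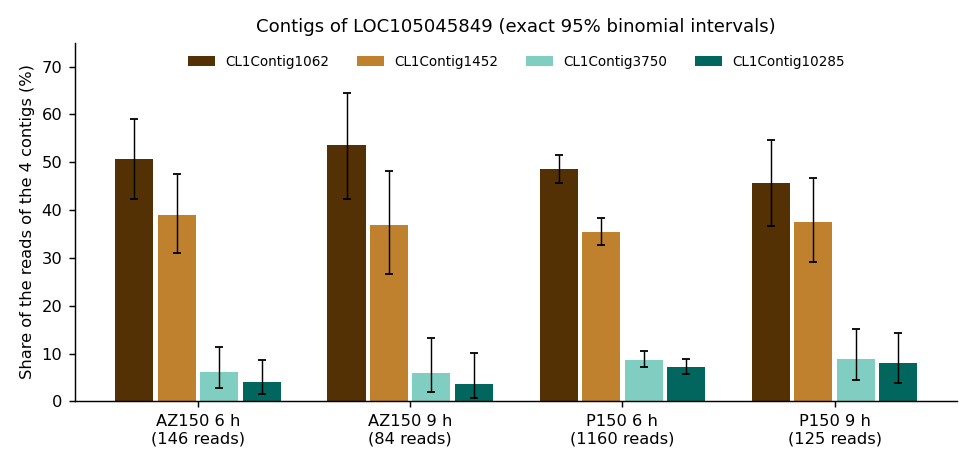
Share (%) of the reads of the 4 contigs of LOC105045849 that fell on each contig (vertical axis, from 0) in AZ150 and P150 after 6 and 9 h of ethylene (horizontal axis, with the reads summed over the 4 contigs). Bars are shares and lines are exact 95% binomial intervals. CL1Contig1452 held 35.4% to 39.0% in each library.

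Summed over its 4 contigs, LOC105045849 had 2, 3, 146 and 84 reads in AZ150, or 1.95, 5.32, 172 and 66.1 reads per 100000. In P150 it had 10, 19, 1160 and 125 reads, or 4.52, 9.49, 384 and 301 reads per 100000. In AZ30 it had 0, 0, 5 and 5 reads. The sum at 6 h was 88.3 times that at 0 h in AZ150 (95% interval 24.0 to 736) and 84.8 times in P150 (46.0 to 177). AZ150 over P150 was 0.449 at 6 h (0.375 to 0.534) and 0.220 at 9 h (0.165 to 0.292). Were it 1 contig, it would have been the 8th by reads in P150 at 6 h, the 11th in P150 at 9 h and the 29th in AZ150 at 6 h.

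The other asparagine synthetase genes had other courses, except EgASN1 in P150, which was low up to 3 h and highest at 6 h like LOC105045849. EgASN1 (CL1Contig9383, LOC105044583), most similar to Arabidopsis ASN1 and listed as a pseudogene in the reference annotation, had 4, 23, 76 and 360 reads in AZ150, or 3.90, 40.8, 89.6 and 283 reads per 100000. In P150 it had 5, 8, 362 and 40 reads, or 2.26, 4.0, 120 and 96.2 reads per 100000. In AZ30 it had 0, 34, 8 and 446 reads, or 0, 31.4, 10.2 and 208 reads per 100000. In AZ150 EgASN1 at 9 h was 3.16 times its 6 h level (95% interval 2.46 to 4.10), where the summed LOC105045849 was 0.384 of its own (0.290 to 0.505). AZ150 over AZ30 at 9 h was 1.36 for EgASN1 (1.18 to 1.57), or 1.14 with TMM sizes (0.991 to 1.31), and 28.3 for the summed LOC105045849 (11.7 to 89.5). In P150 both were highest at 6 h, and EgASN1 at 9 h was not apart from it by library totals (9 h over 6 h 0.803, 0.564 to 1.12). With TMM sizes EgASN1 was lower at 9 h than at 6 h in P150 (0.478, 0.336 to 0.664). A second contig of the EgASN1 transcript, CL1Contig9073, had 44 reads in all and at most 7.21 reads per 100000.

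The ASN1-like CL1Contig7698 (LOC105042098) had a narrower range than the other asparagine synthetase loci. It had 9, 30, 21 and 56 reads in AZ150, or 8.77, 53.2, 24.8 and 44.0 reads per 100000. In P150 it had 23, 82, 49 and 13 reads, or 10.4, 41.0, 16.2 and 31.3 reads per 100000, and in AZ30 it lay between 11.3 and 28.6. Its levels at 3 and 9 h were not apart in AZ150 or P150 by library totals. With TMM sizes AZ150 was highest at 9 h (49.7, against 45.8 at 3 h), while P150 had 48.4 at 3 h and 25.6 at 9 h. AZ150 over P150 had intervals that include 1 at all 4 times, except at 9 h with TMM sizes (1.94, 1.05 to 3.87).

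A second contig of lysine breakdown, CL1Contig19815, carries another RefSeq transcript of LKR/SDH than CL1Contig8118 and best matches a shorter Arabidopsis transcript of the same gene. Whether both come from 1 gene was not tested, and reads may have been split between them. CL1Contig19815 had 12, 36, 54 and 180 reads in AZ150, or 11.7, 63.8, 63.7 and 142 reads per 100000. In P150 it had 15, 86, 184 and 43 reads, or 6.78, 43.0, 60.8 and 103 reads per 100000. In AZ30 it had 1, 14, 3 and 47 reads, or 3.77, 12.9, 3.83 and 21.9 reads per 100000. The level was highest at 9 h in each tissue, though in P150 the 9 h level was 1.01 times that of 6 h with TMM sizes (0.708 to 1.42), and lowest in AZ30 at every time, though at 0 h the intervals overlap. CL1Contig19815 at 9 h was 12.1 times its 0 h level in AZ150 (95% interval 6.76 to 23.9) and 15.2 times in P150 (8.30 to 29.5). Unlike the ASN3-like contigs, its AZ150 over P150 ratio had an interval that includes 1 at all 4 times, 1.05 at 6 h (0.758 to 1.42) and 1.37 at 9 h (0.977 to 1.96), though the 9 h ratio was 1.89 with TMM sizes (1.35 to 2.70). Of the reads of both LKR/SDH contigs, CL1Contig8118 held 6.51%, with 12.9% in AZ150 at 6 h (5.74 to 23.9), 4.17% in P150 at 6 h (1.82 to 8.04) and 18.9% in P150 at 9 h (9.44 to 32.0).

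**Figure D4:**
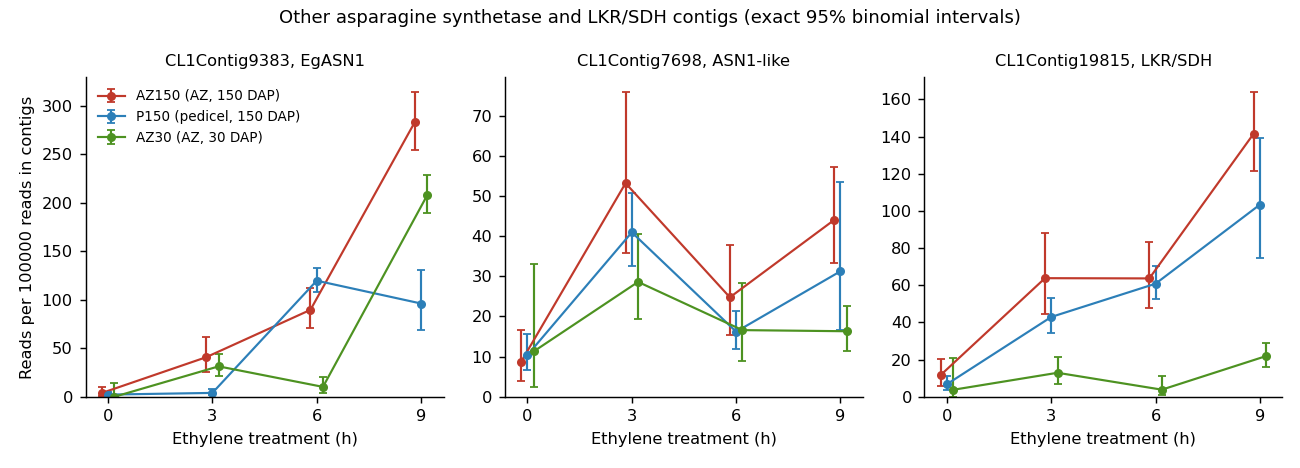
Reads per 100000 reads in contigs of EgASN1 (CL1Contig9383), the ASN1-like CL1Contig7698 and the LKR/SDH contig CL1Contig19815 (vertical axis, from 0, its own range in each panel) against hours of ethylene (horizontal axis) in AZ150, P150 and AZ30. Each point is 1 library with its exact 95% binomial interval. At 9 h, EgASN1 reached 283 in AZ150 and 208 in AZ30, and CL1Contig19815 reached 142 in AZ150, 103 in P150 and 21.9 in AZ30.

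To place these contigs among all others, the counts of each treated library were set against those of its own tissue at 0 h. The Audic and Claverie test (two-sided) was used, called at p under 0.01 with no adjustment. Its lower tail held the observed count and its upper tail left it out, which favours calls of higher levels. The test asks whether a pair of libraries can share 1 abundance, and it compares those libraries, not the conditions. In AZ150, 1.93%, 1.93% and 1.98% of the contigs tested were called higher at 3, 6 and 9 h, and 0.929%, 1.36% and 2.61% lower. In P150, 2.46%, 2.85% and 3.07% were called higher and 2.31%, 4.27% and 0.551% lower. In AZ30, 0.523%, 0.324% and 0.838% were called higher and 2.22%, 2.52% and 6.22% lower. The split depended on the scaling. With TMM sizes, which shift the log2 ratios by -0.48 to 1.22, it became 482 higher and 182 lower at 3 h, 288 and 154 at 6 h, and 1026 and 440 at 9 h in AZ30, against 130 and 553, 67 and 522, and 236 and 1754 with library totals. In P150 it became 1542 and 1022 at 6 h, and 383 and 425 at 9 h, against 1077 and 1613, and 936 and 168. In AZ150 it became 419 and 343 at 3 h, and 706 and 521 at 9 h, against 495 and 238, and 563 and 743. With the observed value in both tails, 369, 389 and 493 were called higher in AZ150, against 495, 501 and 563. At 9 h in P150 the counts were then 456 higher and 168 lower, against 936 and 168. The counts called lower did not change in any tissue.

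Outside the contigs of LOC105045849 and CL1Contig8118, 24 contigs carried the product names of amino acid lists (asparagine and lysine metabolism, nitrogen assimilation, aminotransferases, branched-chain breakdown, transport). Product names were at hand for 1050 contigs only, all of them ones that the study had called in AZ150, so the AZ150 counts are not independent of how the lists were made. In AZ150, 14, 13 and 14 of the 24 rose at 3, 6 and 9 h, and 1, 1 and 0 fell, or 58.3%, 54.2% and 58.3% rising, beside 36.3%, 44.2% and 53.4% of all contigs with product names. In P150, 12, 14 and 12 rose and 0, 3 and 0 fell, or 50.0% to 58.3% rising, beside 27.5% to 33.2% of all contigs with product names. In AZ30, 2, 0 and 4 rose and 1, 2 and 2 fell, beside 7.27%, 2.84% and 14.6% rising among all contigs with product names. With TMM sizes, AZ30 at 9 h held 14 that rose and 1 that fell, P150 at 9 h held 7 that rose and AZ150 at 3 h held 9. With the observed value in both tails, 10, 10 and 12 of the 24 rose in AZ150 at 3, 6 and 9 h. In P150 11, 13 and 11 then rose, and in AZ30 1, 0 and 4. These counts thus depend on the scaling and on the tail rule. The shares of all contigs with product names were not worked out under that rule. At 9 h the 24 had a median log2 ratio of 1.52 for AZ150, 1.5 for P150 and 1.73 for AZ30, against 1.53, 0.65 and 1.45 over all contigs with product names and -0.14, -0.54 and 0.55 over all contigs tested.

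Among single contigs, CL1Contig19815 rose at every time in AZ150 and P150, and with TMM sizes also at 9 h in AZ30. EgASN1 rose at every time in AZ150, at 6 and 9 h in P150 and at 3 and 9 h in AZ30. CL1Contig7698 rose at every time in AZ150 and at 3 and 9 h in P150, and with TMM sizes also at 3 h in AZ30. CL1Contig9073 rose at 6 and 9 h in AZ150 and P150, where the P150 call at 9 h rests on 3 reads against 0, at the floor of 3 reads. Of the contigs that share LOC105045849, CL1Contig3750 and CL1Contig10285 rose at 6 h in AZ150 and at 6 and 9 h in P150. Counting the observed value in both tails ended the AZ150 calls of CL1Contig9073 at 6 and 9 h and of CL1Contig7698 and CL1Contig10285 at 6 h. TMM sizes ended the P150 call of CL1Contig7698 at 9 h.

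The nitrogen assimilation list held a glutamine synthetase and glutamate dehydrogenases. The study counts glutamate dehydrogenase among the enzymes of amino acid breakdown. CL1Contig11092, a glutamine synthetase that fixes ammonium into glutamine, lay between 35.1 and 59.0 reads per 100000 in AZ150 and between 38.9 and 57.7 in P150. It rose at 9 h in AZ150 and AZ30, and with TMM sizes also at 3 and 6 h in AZ30. EgGDH1 (CL1Contig9742), a glutamate dehydrogenase, had 1.95, 16, 13.0 and 50.3 reads per 100000 in AZ150, 0.904, 9.99, 1.32 and 7.21 in P150, and 0 to 7.46 in AZ30, and it rose at all 3 times in AZ150 and at 3 h in P150. CL249Contig2, a second glutamate dehydrogenase, had 23 reads in all and rose at 6 h in AZ150 only. The AZ150 calls of CL1Contig11092 and CL249Contig2 ended with the observed value in both tails. The level of EgGDH1 in AZ150 at 9 h was thus above all its other levels.

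Aminotransferases exchange amino groups between aspartate, alanine and glutamate. CL1Contig7693, similar to the aspartate aminotransferase ASP4, had 82.8, 94.0, 133 and 176 reads per 100000 in AZ150, 37.1, 38.5, 55.9 and 76.9 in P150, while AZ30 had 7.53, 19.4, 20.4 and 50.8, and it rose at 6 and 9 h in AZ150 and P150 and at 9 h in AZ30. EgALAAT2 (CL1Contig6943), an alanine aminotransferase, rose at 3 and 9 h in AZ150, with 41.7 reads per 100000 at 9 h against 7.80 at 0 h, and at 3 and 6 h in P150. With TMM sizes EgALAAT2 and CL1Contig12789 also rose at 9 h in AZ30. CL1Contig12789 rose at 3 and 6 h in AZ150 and at all 3 times in P150, and the ASP1-like CL1Contig10678 at 3 h in AZ150, or with TMM sizes at 9 h in AZ150 and at 6 h in P150 instead. CL1Contig16028, a dihydrodipicolinate synthase, which makes the first step towards lysine, rose at 3 h in AZ150, with 16 reads per 100000 against 2.92, and in no other library. TMM sizes, and likewise the observed value in both tails, ended the 3 h calls of CL1Contig12789, CL1Contig10678 and CL1Contig16028 in AZ150, and TMM sizes ended the 9 h calls of CL1Contig7693 and CL1Contig12789 in P150.

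Of the 5 contigs of branched-chain amino acid breakdown, 4 rose at 6 h and at 9 h in AZ150, and 5 rose at 6 h in P150, beside 44.2%, 53.4% and 33.2% of all contigs with product names. One of the 5, CL1Contig21172 (54 reads), a hydroxymethylglutaryl-CoA lyase, fell at 6 and 9 h in AZ30, which ended with TMM sizes, and its P150 call at 6 h ended with the observed value in both tails. CL1Contig6243, an aminotransferase-like protein, had 3.90, 63.8, 67.2 and 61.3 reads per 100000 in AZ150, 5.43, 24.5, 52.6 and 21.6 in P150, and at most 17.7 in AZ30. EgBCAT3 (CL1Contig4558), a branched-chain aminotransferase, had 38.5 reads per 100000 in AZ150 at 9 h against 3.90 at 0 h, and 28.0 in AZ30 at 9 h, where its 0 h library had no read. CL1Contig10539, the E1 alpha subunit of the branched-chain keto acid dehydrogenase (LOC105051761), and EgMCCB (CL1Contig19613), the beta chain of methylcrotonoyl-CoA carboxylase, had 46.0 and 40.1 reads per 100000 in AZ150 at 6 h against 3.90 and 9.75 at 0 h. The P150 calls of CL1Contig6243 and EgBCAT3 at 9 h ended with TMM sizes. With these sizes CL1Contig6243, CL1Contig10539 and EgMCCB also rose at 9 h in AZ30.

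Transport was the mixed list, where 4, 1 and 2 of 7 contigs rose at 3, 6 and 9 h in AZ150 and 1, 1 and 0 fell. Of all contigs with product names, 36.3%, 44.2% and 53.4% rose there and 6.67%, 5.17% and 12.4% fell. In P150, 5, 3 and 3 of the 7 rose and 0, 3 and 0 fell. The shares of all contigs with product names in P150 were 29.6%, 33.2% and 27.5% rising and 7.49%, 13.3% and 3.41% falling. CL1Contig1152, similar to the cationic amino acid transporter CAT4, had 73.9 reads per 100000 in AZ150 at 9 h against 33.1 at 0 h. TMM sizes ended its 3 h call in AZ150. EgLHT1 (CL1Contig13226), similar to lysine and histidine transporters, had 36.1, 37.2, 18.9 and 70.0 in AZ150, 13.1, 9.99, 5.95 and 2.40 in P150, and 0 to 19.6 in AZ30. CL1Contig10857 rose at 3 h in AZ150 and at 3 and 6 h in P150, where the 3 h call ended with the observed value in both tails. For CL1Contig9362 the annotations name an amino acid permease in Swiss-Prot and a dehydration-responsive protein in Arabidopsis. It had 128, 67.4, 23.0 and 6.53 reads per 100000 in AZ30 and fell there at 3, 6 and 9 h. Of these calls, that at 3 h ended with TMM sizes. In P150 CL1Contig9362 rose at 3 h and fell at 6 h. It rose at 3 h in AZ150, a call that ended with TMM sizes and likewise with the observed value in both tails. EgLHT1 rose at 9 h in AZ150 and fell at 6 h in P150, the second of which ended with TMM sizes. With these sizes EgLHT1 also rose at 3 and 9 h in AZ30, and CL1Contig1152 and CL1Contig10857 at 9 h.

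Over the 4 times together, tissues were compared with edgeR's quasi-likelihood test on 10762 contigs, with Benjamini-Hochberg adjustment. The times of a tissue stand in for replicates in this fit, and for the 3 contigs only the fitted difference is given. The share called higher and lower was 0.641% and 0.0372% for AZ150 against P150, 2.51% and 1.85% for AZ150 against AZ30, and 2.03% and 2.69% for P150 against AZ30. With DESeq2, P150 against AZ30 had 142 higher and 290 lower, against 219 and 290. The fitted log2 difference of AZ150 from P150 was -1.13 for CL1Contig1062, -1.61 for CL1Contig1452 and 0.55 for CL1Contig8118. From AZ30, AZ150 differed by 4.50 for CL1Contig1062, 5.43 for CL1Contig1452 and 4.71 for CL1Contig8118. P150 differed from AZ30 by 5.63, 7.04 and 4.17 in the same order. Since each contig has no read in some of the AZ30 libraries, the fitted differences from AZ30 depend on the prior count and are no bound. These differences restate the counts that the contigs were chosen on and carry no test. No SE is given for them, since it was worked back from the test statistic.

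In the same edgeR fit, 8 of the 23 other amino acid contigs tested were higher in AZ150 than in AZ30 and 0 were lower, or 34.8%, beside 17.4% of all contigs with product names. CL1Contig19815 was among them, with a log2 difference of 2.75 (SE 0.54, adjusted p = 4.09e-05). It was also higher in P150 than in AZ30 by 2.28 (SE 0.53, adjusted p = 0.00107). Each SE is the size of the log2 difference over the square root of the test's F statistic. EgASN1 showed no called difference between tissues, with 0.81 for AZ150 over AZ30 (SE 0.51, adjusted p = 0.537) and 0.93 for AZ150 over P150 (SE 0.52, adjusted p = 0.801). The others higher in AZ150 than in AZ30 were CL1Contig7693 (2.42), CL1Contig6243 (2.40), EgGDH1 (2.48), CL1Contig10539 (2.21), EgALAAT2 (1.84), EgLHT1 (1.86) and the AAP6-like permease CL1Contig9321 (2.75). EgLHT1 alone was higher in AZ150 than in P150, by 2.0 (SE 0.49, adjusted p = 0.00979), or 4.35% of the 23, beside 5.40% of all contigs with product names. In P150 over AZ30, 4 of the 23 were higher and 1 lower, CL1Contig9362, or 17.4% and 4.35%, beside 9.27% and 2.85% of all contigs with product names.

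The polygalacturonases EgPG4, EgPGAZ1 and EgPGAZ2 were taken as markers of the AZ under ethylene. EgPG4 is also expressed in ripening mesocarp, and with 2 reads of the 3 in AZ150 at 0 h and none in AZ30 at 0 h they do not check the dissection of untreated tissue. Their sum was 1.95, 95.7, 94.4 and 551 reads per 100000 in AZ150, 0, 0, 0.661 and 4.81 in P150, while AZ30 had 0, 2.77, 1.28 and 73.7. The libraries with the highest levels of the ASN3-like contigs, P150 at 6 and 9 h, thus held 2 reads each of these 3 markers. The summed level of 3 contigs of mesocarp oil synthesis ranged over 84.2 to 249 (AZ150), 31.7 to 82.3 (P150) and 28.4 to 75.3 (AZ30), and was highest in AZ150 at 0 h, where CL1Contig1062 had 1 read. One chlorophyll-binding contig (CL1Contig10754) lay between 10.6 and 37.0 in AZ150 and at most at 8.14 in P150. The part of mesocarp or green tissue in the levels was not tested.

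Likeness to each contig was measured as Pearson's r of log2(reads per 100000 + 1) over the 12 libraries among 9297 contigs with at least 30 reads. These values share libraries and depth, and r is given as a description. CL1Contig1452 was most like the other contigs of LOC105045849, CL1Contig1062 (0.965), CL1Contig10285 (0.958) and CL1Contig3750 (0.943). Outside that transcript came the F-box protein FBX14-like CL1Contig12528 (0.899), the NAC factor CL1Contig8836 similar to ANAC017 (0.883), the esterase-like CL1Contig5882 (0.883), the RNA helicase-like CL1Contig3706 (0.880) and the sucrose synthase SUS3-like CL1Contig3234 (0.877). For CL1Contig1062 the first outside its transcript were a putative ripening-related protein, CL1Contig5050 (0.938), the AAP6-like amino acid permease CL1Contig9321 (0.926), CL1Contig9817, which has no product name at hand (0.922), CL1Contig5882 (0.921) and the ribosomal protein S29 contig CL1Contig5296 (0.914). CL1Contig3706 had 120 reads per 100000 in AZ150 at 6 h, 191 in P150 at 6 h and at most 18.7 in AZ30. CL1Contig9321 had 14.1 in AZ150 at 6 h, 19.2 in P150 at 6 h and at most 2.33 in AZ30.

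CL1Contig8118 was most like CL1Contig12732, similar to a jasmonate-induced protein of barley (r = 0.889), followed by the other LKR/SDH contig CL1Contig19815 (0.882), the beta-1,3-glucanase BGL2-like CL1Contig18560 (0.880), CL1Contig13347, with no product name at hand (0.870), and the lipase-like CL1Contig7404 (0.869). Between the groups, r was 0.784 for CL1Contig8118 with CL1Contig1062 and 0.760 with CL1Contig1452. EgASN1 was less alike, with r of 0.636 with CL1Contig1062, 0.551 with CL1Contig1452 and 0.576 with CL1Contig8118.

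In AZ of field fruit, expression was deposited as RPKM, read counts scaled by transcript length and library size, with 1 library an age, and no test was made. LOC105045849, the locus of the ASN3-like contigs, had 10.9, 36.9 and 9.12 RPKM at 30, 120 and 160 DAP. It was highest at 120 DAP, before the fruit shed. On the scale log2(RPKM + 0.1), the ratio of 160 to 120 DAP was -2.01, that of 160 to 30 DAP -0.26 and that of 120 to 30 DAP 1.75. With median ratio scaling the ratio of 160 to 30 DAP turned to 0.43, so no direction is given for it.

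Against this stood the share of genes that differed by at least 2-fold, among those with at least 1 RPKM in either library. At 160 against 120 DAP, 8.91% were higher and 29% lower. At 160 against 30 DAP, 13.9% were higher and 44.1% lower, and at 120 against 30 DAP 15.4% were higher and 27.1% lower. The median log2 ratio over all genes was -0.47 for 160 over 120 DAP, -0.76 for 160 over 30 DAP and -0.18 for 120 over 30 DAP. Median ratio scaling shifts these ratios by 0.54, 0.70 and 0.16 and gave 4198 higher and 3878 lower at 160 against 120 DAP, against 2214 and 7213, and 6874 and 8167 at 160 against 30 DAP, against 3907 and 12415. The log2 ratio of LOC105045849 at 160 over 120 DAP was at percentile 9.13 of genes, and that at 120 over 30 DAP at percentile 92.2.

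EgASN1 had the opposite course from 120 to 160 DAP. It had 3.86, 73.4 and 1536 RPKM at 30, 120 and 160 DAP, the 46th highest of 39464 genes and transcripts at 160 DAP. The level at 160 DAP was 20.9 times that at 120 DAP and 398 times that at 30 DAP. LOC105042098, the locus of CL1Contig7698, had 28.8, 92.0 and 88.1 RPKM. Of the asparagine synthetases, EgASN1 alone was thus over 2-fold higher at 160 than at 120 DAP. The field level of LKR/SDH was not analysed here.

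**Figure D5:**
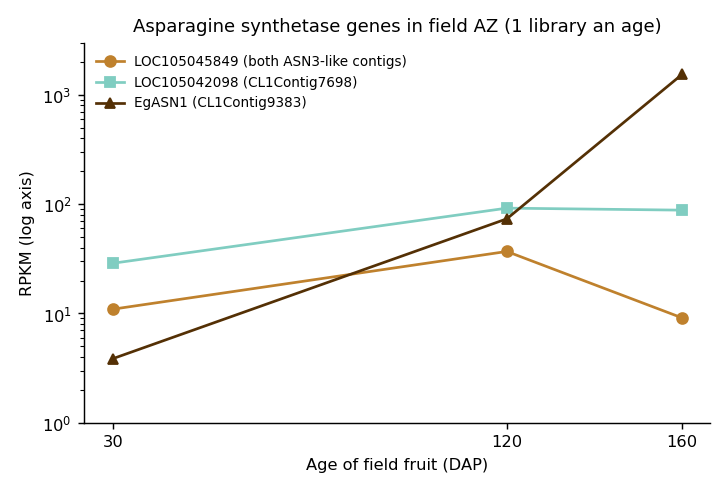
RPKM (vertical log axis) of the asparagine synthetases LOC105045849 (the locus of CL1Contig1062 and CL1Contig1452), LOC105042098 and EgASN1 in AZ of field fruit against days after pollination (horizontal axis), with 1 library an age and no error. LOC105045849 had 36.9 at 120 DAP and 9.12 at 160 DAP, where EgASN1 reached 1536.

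Of the other amino acid genes with a field value, 3 of 22 were at least 2-fold higher and 6 lower at 160 than at 120 DAP, 15 of 21 higher and 4 lower at 160 than at 30 DAP, and 16 higher and 1 lower at 120 than at 30 DAP, where their log2 ratio had a median of 1.94. With median ratio scaling the first of these became 8 higher and 5 lower. Among all genes with product names, 20.9% were higher and 18.9% lower at 160 than at 120 DAP, 48.2% and 15.1% at 160 than at 30 DAP, and 50.3% and 6.12% at 120 than at 30 DAP. EgLHT1 (CL1Contig13226), the contig higher in AZ150 than in P150, had 4.95, 107 and 501 RPKM at 30, 120 and 160 DAP. The glutamine synthetase CL1Contig11092 had 128 RPKM at 30 DAP, 321 at 120 DAP and 1.22 times that at 160 DAP, and EgGDH1 (CL1Contig9742) had 9.89, 63.7 and 115 at the 3 ages. The aspartate aminotransferase CL1Contig7693 was highest at 120 DAP, with 39.9, 570 and 324 RPKM, as was the branched-chain contig CL1Contig6243, with 3.64, 228 and 132. EgBCAT3 (CL1Contig4558) had 0.647, 55.3 and 119 RPKM.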

How the data were processed

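Per the labels and the study's methods, AZ150, P150 and AZ30 libraries were sequenced by Roche pyrosequencing, and the authors deposited raw read counts per contig of a de novo assembly (51804 contigs, 1 library a condition). For field AZ the authors deposited RPKM of 44360 Illumina transcripts, although the sample titles speak of read counts. Here 17 columns of no listed sample were not used. Transcripts were joined to loci by RefSeq identifiers (39464 genes and transcripts), and product names of contigs came from the study's annotation (1050 contigs).

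Counts were scaled to 100000 reads in contigs. Shares had exact binomial and ratios exact conditional 95% intervals, both for counting error only, and a count of 0 was set to at most 3 reads. With 1 library a condition, nothing estimates the spread between samples. Treated libraries were tested against 0 h by the Audic and Claverie test (p under 0.01), with the observed count in the lower tail only. Tissues were compared with edgeR 4.0.16 (R 4.3.3) on time and tissue, TMM sizes and a filter of 3 reads or more in 4 or more libraries, called at an adjusted p under 0.05. Alternatives were other sizes and filters, both tails in the first test, DESeq2 1.42.0 and leaving out each time. Field ratios used log2(RPKM + 0.1) and a 2-fold rule. Python 3.11.15 with scipy 1.17.1 and pandas 2.3.3 did the rest. The tissue fit was also run on simulated counts with no time effect and a common spread for every contig. Such counts cannot show how the fit behaves on these data, where levels change with time. The Audic and Claverie test was run on simulated counts with counting error only.

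Contigs were named as follows: the 3 contigs, all of asparagine synthesis and lysine breakdown, from each other list those called in AZ150 (at most 4 by reads, in the field at most 3 by RPKM), and the 5 most alike to each of the 3. Other contigs are named where a tissue test called them. The members and lists were chosen with earlier results of these data known.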

Additional observations from a re-analysis of the deposited data

How the results depend on the processing

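No paired analysis was possible because each condition had 1 library, so no replicate number pairs samples, and the tissue fit already holds the time as a term. With TMM sizes the AZ150 over P150 log2 ratio at 6 h was -1.60 for CL1Contig1062, against -1.10, and -1.52 for CL1Contig1452, against -1.02, and 1022 contigs fell in P150 at 6 h. At 9 h in P150, 383 rose and 425 fell, and in AZ30 482 rose and 182 fell at 3 h, 288 and 154 at 6 h, and 1026 and 440 at 9 h. Counting the observed value in both tails, 456 rose in P150 at 9 h. Among contigs with at least 10 reads, 1169 fell in AZ30 at 9 h.

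For AZ150 against P150, edgeR called 69 higher, but 35 with at least 1 read in 4 libraries and 39, 35, 44 and 27 without 0, 3, 6 and 9 h, and 4 lower, but 12 with library totals, 2 with DESeq2, 1 without 3 h and 1 without 9 h. For AZ150 against AZ30 it called 270 higher, but 154 with the weaker filter and 159, 138 and 137 without 0, 3 and 6 h, and 199 lower, but 120, 77 and 79. For P150 against AZ30 it called 219 higher, but 142 with DESeq2, 141 with the weaker filter and 131, 103 and 85 without 0, 3 and 6 h, and 290 lower, but 187, 158 and 118. Fewer libraries entered each fit without a time.

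The AZ150 minus AZ30 difference was 4.12 with DESeq2 for CL1Contig1452, against 5.43, and 7.04 without 3 h for CL1Contig8118, against 4.71. The P150 minus AZ30 difference was 5.67 with DESeq2 for CL1Contig1452, against 7.04, and for CL1Contig8118 it was 2.96 with DESeq2 and 6.54 without 3 h, against 4.17. Without 6 h or without 9 h, CL1Contig1452 and CL1Contig8118 had too few reads for the fit. With median ratio scaling of the field values, 4198 genes were higher and 3878 lower at 160 against 120 DAP, and 6874 and 8167 at 160 against 30 DAP, where LOC105045849 had 0.43, against -0.26. Over all alternatives, 8 values of the 3 contigs and their locus, given above, were counted as moved and 157 were not. Field ratios and ratios given as at least have no error to set a move against. The cause of these shifts was not tested.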
